A study of Mus musculus with 39 samples.

Results

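Mouse embryonic stem cells (ESCs) that had received Activin A plus Wnt3a for 5 days were compared with cells kept for 5 days in the same medium without growth factors. Each group had 3 arrays, taken by their labels, so that 6 of the 39 arrays of the series entered the comparison. The comparison asks how the miRNA profile changes in a culture meant to give definitive endoderm, the germ layer of the gut, liver and pancreas. The cells were of the mouse ESC line TCL-1, freed of their fibroblast feeder cells and seeded on collagen. Both groups were then kept in RPMI medium with B27 and what the labels call sodium butyrate, so that the controls were also differentiating cells and not undifferentiated ESCs. The treated cells received Activin A at 100 ng/ml and Wnt3a at 50 ng/ml. A second comparison used the 3 arrays of cells given the same dose of Activin A alone, and another used the same treatment and its controls at day 3. Nothing in the labels says that the arrays of a group came from separate cultures, so p-values measure only the spread between these arrays, which may be technical.

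Activin A is a TGF-beta family ligand that signals through Smad2 and Smad3, and Wnt3a stabilizes beta-catenin. Together they push ESCs through a state like the primitive streak towards mesendoderm, while cells left without them in a serum-free medium with B27 tend towards neural fates. MiRNAs are short RNAs that lower the output of matching mRNAs, and bases 2 to 8 of each, its seed, contribute most to the choice of targets. Several families are tied to cell states: miR-290 to miR-295 to ESCs, miR-302 and miR-367 to the primed epiblast, miR-200 to epithelia, and miR-124, miR-9 and miR-219 to neural cells.

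The sequences below are those of miRNAs whose groups or opposite changes the results describe. They are mature sequences from RefSeq (build GRCm38.p6), 5′ to 3′, with the seed in capitals. The array names follow an older style, without the prefix mmu- here, and each was assigned to an arm from that naming, in which a name with an asterisk is the minor arm. Of 60 names looked up, 54 had an entry. The first set holds the miR-200 family, which has 2 seeds, AAUACUG and AACACUG.
miR-200b: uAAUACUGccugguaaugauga
miR-200c: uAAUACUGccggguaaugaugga
miR-429: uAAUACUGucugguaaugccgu
miR-200a: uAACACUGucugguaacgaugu
miR-141: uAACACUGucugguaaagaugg
The second set holds members of the clusters miR-290 to miR-295 and miR-302 and miR-367, followed by 3 members of the miR-17 seed group, in which the same letters AAGUGC stand 1 base further on.
miR-291a-3p: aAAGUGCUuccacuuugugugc
miR-294: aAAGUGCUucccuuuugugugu
miR-295: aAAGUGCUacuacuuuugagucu
miR-302d: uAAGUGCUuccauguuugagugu
miR-20a: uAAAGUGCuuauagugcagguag
miR-20b: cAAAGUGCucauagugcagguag
miR-93: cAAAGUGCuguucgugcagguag
The third set holds miRNAs that share a seed and changed in opposite directions.
miR-99b: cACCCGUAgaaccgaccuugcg
miR-99a: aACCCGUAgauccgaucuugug
miR-100: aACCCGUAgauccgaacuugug
miR-125a-5p: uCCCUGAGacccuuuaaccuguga
miR-125b-5p: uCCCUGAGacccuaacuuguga
miR-181c: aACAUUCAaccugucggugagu
miR-181a: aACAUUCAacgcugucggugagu
miR-181b: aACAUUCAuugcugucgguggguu
miR-497: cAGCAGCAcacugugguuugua
miR-16: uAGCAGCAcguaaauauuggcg
miR-322: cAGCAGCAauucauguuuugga
miR-367: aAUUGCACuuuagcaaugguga
miR-92a: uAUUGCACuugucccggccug
The fourth set holds miRNAs coded within the Hox gene clusters and miR-9, a miRNA of neural progenitors.
miR-196a: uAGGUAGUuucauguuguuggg
miR-196b: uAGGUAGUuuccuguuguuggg
miR-10a: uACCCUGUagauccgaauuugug
miR-9: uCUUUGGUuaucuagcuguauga

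Levels are given as normalized signals on the log2 scale, with a floor of 2, which is 1.00 on that scale, for signals that were low or not detected. Between 315 and 324 of the 611 mouse miRNAs were detected on the control arrays and at most 309 on the treated arrays. Testing required detection on 2 or more of the 3 arrays in control or treated cells, and a miRNA was called where its limma adjusted p was under 0.05 and the difference was over 2-fold. Of 332 miRNAs tested, 110 were called (33.1%), 57 of them higher (17.2%) and 53 lower (16%) in the treated cells. These shares are the background for every list counted below. All 110 had treated arrays that lay wholly above or below the control arrays, as did 263 of the 332 tested (79.2%). The median difference over all tested was 0.0086. Scaling each array to the 75th percentile of the miRNAs detected on all arrays moved that median to -0.262 and the split to 45 higher and 71 lower. No called miRNA changed direction under any of the scalings run. Where a miRNA was undetected in a group, "at least" marks a fold to the lowest signals detected on those arrays. These signals are not a detection limit for each miRNA. Let-7b* was detected on 2 of 3 treated arrays, at 3.81 and 4.66, and undetected on the remaining array. The true fold may thus be smaller than the one given. In these bulk samples, fewer cells of a type and less of a miRNA per cell cannot be told apart.

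The control arrays shared 1 slide and the treated arrays another, so treatment and slide were separated only through the Activin A arrays, of which 2 lay with the controls and 1 with the treated cells. With slide as a fixed term, 68 miRNAs were called, 41 higher and 27 lower, and 66 of these were among the 110. The 110 differences all kept their sign. For the 77 called miRNAs that were detected on all 9 arrays of the 3 groups, the difference with the slide term was 0.302 to 1.45 times the difference without it, with a median of 1.01, and the standard errors of the 110 were larger by a median of 1.91 times. The Activin A array on the treated slide stood apart from the other 2 of its group by a root mean square of 0.36 over 260 miRNAs, against 0.199 to 0.281 among controls and 0.159 to 0.382 among treated arrays. A call that was lost with the slide term is named as such below, with its adjusted p. The fit shares its estimate of spread with the Wnt3a arrays, which differed from each other more, by 0.677 to 1.24. With only the 6 arrays compared, 64 miRNAs were called higher and 58 lower, and these included all 110.

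**Figure D1:**
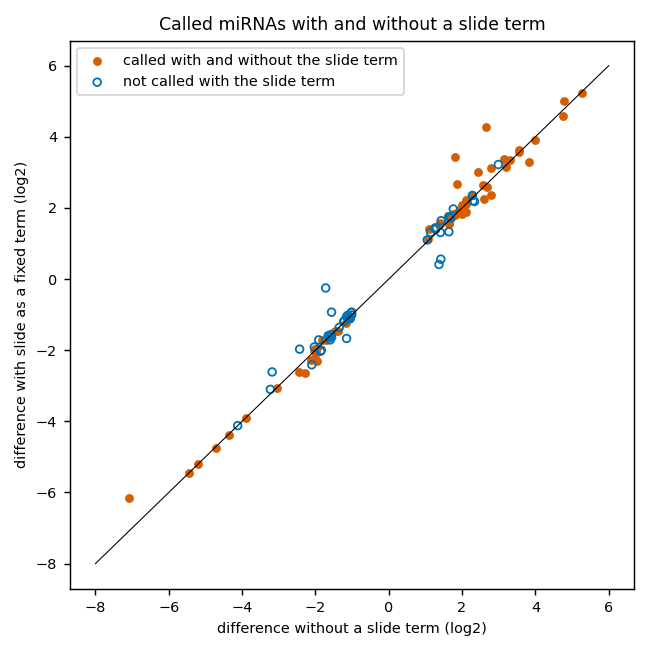
Difference between Activin A plus Wnt3a and control at day 5 for the 110 called miRNAs, without (x axis) and with (y axis) slide as a fixed term, both log2. All points keep their sign, but some lie well off the line of equality, among them miR-24-2* (1.80 and 3.44) and miR-199b* (1.37 and 0.41). Filled points are the 66 that were also called with the slide term.

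The miR-200 family, which holds down the Zeb repressors of E-cadherin and marks epithelial cells, rose as a whole. All 5 of its tested members were called higher (17.2% of all miRNAs tested were), with a median difference of 3.54 against 0.0086 over all tested. MiR-200a measured 4.15, 4.19 and 4.15 in control and 7.77, 7.77 and 7.63 in treated cells. This was an 11.8-fold increase (3.56 ± 0.26 SE, adjusted p = 1.87e-06). MiR-429 (chr4:156053916-156053937) measured 4.60, 4.77 and 4.68 in control and 8.18, 8.22 and 8.29 in treated cells, an increase of 3.54 ± 0.15 (adjusted p = 2.41e-08). MiR-200b, coded beside these on chromosome 4 (chr4:156055685-156055706), measured 5.90, 5.83 and 5.87 and then 9.0, 9.07 and 9.13, an increase of 3.20 ± 0.14. The 3 miRNAs of this cluster thus rose by similar amounts from unequal starting signals.

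The members coded on chromosome 6 also rose. MiR-200c (chr6:124718324-124718346) measured 3.91, 3.93 and 3.93 in control and 7.15, 7.22 and 7.33 in treated cells, a 9.90-fold increase (3.31 ± 0.13 SE, adjusted p = 1.71e-08). MiR-141, detected on 1 of 3 control arrays and at the floor there, measured 5.85, 6.03 and 5.48 in treated cells. Its difference of 4.79 ± 0.36 (adjusted p = 2.05e-06) depends on the floor. All 5 calls held with the slide term. Activin A alone gave differences from the same controls of 3.60 for miR-200a, 3.59 for miR-429, 3.22 for miR-200b, 3.16 for miR-200c and 4.88 for miR-141. None of the 5 was called by limma between the treated cells and those given Activin A. Before differentiation, in undifferentiated ESCs, miR-200a stood at 5.23 and miR-200b at 7.22, between the levels of control and treated cells. The arrays of these cells lay on another slide and in another scan session than those of day 5, so stage and slide cannot be told apart in this and the later values for undifferentiated ESCs.

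Other epithelial miRNAs were few. MiR-205, of stratified epithelia, was detected on 2 of 3 control arrays. It measured 1.00, 2.57 and 1.00 in control and 5.46, 5.50 and 5.55 in treated cells (3.98 ± 0.44, adjusted p = 3.89e-05), a difference that depends on the floor. MiR-34b-5p, of ciliated epithelia, rose by 1.43 ± 0.47 (adjusted p = 0.0273), and this call was lost with the slide term (adjusted p = 0.231). MiR-34c differed by 1.18 and was not called, and miR-203, of the epidermis, was undetected on all 6 arrays. The cluster of miR-183, miR-96 and miR-182, known from sensory epithelia, was called higher in all 4 rows tested, with differences of 1.28 for miR-183, 1.39 for miR-182, 1.69 for miR-96 and 2.59 for miR-183*. MiR-183* sat at the floor on the 3 control arrays although detected, so its difference too depends on the floor. With the slide term the calls of miR-183 (adjusted p = 0.0877) and miR-96 (adjusted p = 0.138) were lost.

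The clusters that mark pluripotent cells were higher in treated cells than in controls. Of the 13 tested strands of miR-290 to miR-295, the main miRNA cluster of undifferentiated ESCs, 11 were called higher, with a median difference of 1.87. MiR-291a-3p measured 10.04, 9.57 and 9.74 in control and 12.48, 12.64 and 12.64 in treated cells, a 6.98-fold increase (2.80 ± 0.19 SE, adjusted p = 1.05e-06). MiR-294 measured 11.13, 11.27 and 11.27 and then 13.32 on every treated array (2.10 ± 0.21). MiR-295 measured 10.98, 11.13 and 10.98 and then 12.89 on every treated array (1.87 ± 0.14). Identical values here mean that the miRNA held the same rank on each array, since quantile normalization assigns a value by rank, and not that the signal had no error.

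The minor strands of the cluster rose with the main ones. MiR-294* measured 2.57, 2.74 and 1.91 in control and 5.40, 5.55 and 5.67 in treated cells, an increase of 3.13 ± 0.49 (adjusted p = 4.01e-04). MiR-291a-5p measured 3.40, 3.32 and 3.45 and then 6.19, 6.35 and 6.61, an increase of 2.99 ± 0.58 (adjusted p = 0.00168), and its call was lost with the slide term (adjusted p = 0.066). The calls of miR-292-5p (adjusted p = 0.0542) and miR-295* (adjusted p = 0.0506) were lost with it too. MiR-290-5p, with a difference of 0.26, and miR-291b-5p, with 0.05, were not called. The summed normalized signal of the cluster was 7925 to 8628 on control arrays, 31978 to 34063 on treated arrays and 35994 to 36551 on the arrays of undifferentiated ESCs. In this sum the treated arrays lay nearer to those arrays than the control arrays did. The strongest members weigh most in it, and quantile normalization caps the top ranks. MiR-294 had a mean of 13.32 in treated cells and in undifferentiated ESCs. Single strands went both ways. MiR-291a-5p and miR-294* averaged 6.38 and 5.54 in treated cells and 8.37 and 6.93 in undifferentiated ESCs. For miR-291a-3p and miR-295 the means were 12.59 and 12.89 against 12.18 and 12.64.

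The miR-302 and miR-367 cluster, of the primed epiblast, was called higher in 5 of 6 strands tested, with a median difference of 2.05. MiR-302a measured 9.13, 9.07 and 9.13 in control and 11.27, 11.13 and 11.27 in treated cells (2.11 ± 0.14 SE, adjusted p = 6.30e-07). MiR-367 measured 8.36, 7.80 and 8.05 and then 10.27, 10.74 and 10.04 (2.28 ± 0.38, adjusted p = 5.88e-04). The minor strand miR-302a* measured 3.10, 3.20 and 3.25 and then 5.74, 5.81 and 5.71 (2.57 ± 0.26). MiR-302b measured 8.61, 8.82 and 8.82 and then 10.16, 10.27 and 10.47, so that its groups did not overlap either, but its adjusted p was 0.146 in the fit that shares its spread with the Wnt3a arrays. The summed signal of the cluster was 2002 to 2075 in control, 7362 to 7802 in treated cells and 1972 to 2024 in undifferentiated ESCs. Here the control arrays, not the treated ones, lay near the arrays of undifferentiated ESCs.

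The neural miRNAs had the lowest median difference of the lists followed. Of 8 tested, 6 were called lower, beside 16% of all tested called lower, and the median was -4.01, or -3.71 with miRNAs undetected in a group at their bound. MiR-219, an oligodendrocyte miRNA, measured 8.82, 8.05 and 8.52 in control and 1.00, 2.15 and 1.00 in treated cells, where it was detected on 1 of 3 arrays. Its difference of -7.08 ± 0.49 (adjusted p = 1.05e-06) was the most negative of the 332, and its size depends on the floor. MiR-124, the most neuron-specific miRNA of the brain, measured 7.91, 7.60 and 7.88 in control and 3.27, 3.13 and 2.88 in treated cells. It was detected on all 6 arrays and fell 26.0-fold (-4.70 ± 0.16 SE, adjusted p = 5.21e-09). Its minor strand miR-124* was at 4.89 to 4.91 in control and undetected in all treated arrays, at least 12.1-fold lower.

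MiR-9, of neural progenitors, measured 7.88, 7.88 and 7.91 in control and 4.66, 4.75 and 4.57 in treated cells. This decrease of 9.36-fold (-3.23 ± 0.64 SE, adjusted p = 0.00177) was not called with the slide term, where the difference was -3.10 (adjusted p = 0.0958). MiR-9* measured 5.74, 5.74 and 5.76 in control and 1.00, 1.00 and 2.15 in treated cells, where it was detected on 1 of 3 arrays, and its call held with the slide term (adjusted p = 0.0123). MiR-153, a brain miRNA, was undetected in treated cells and at least 14.1-fold lower, a call lost with the slide term (adjusted p = 0.051). MiR-128 and miR-129-3p, with differences of -0.36 and -0.96, were not called. The summed signal of the strands of miR-124, miR-9, miR-219 and miR-153 was 809 to 1049 in control, 35 to 40 in treated cells and 0 to 33 in undifferentiated ESCs, so both the treated and the undifferentiated cells were low.

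**Figure D2:**
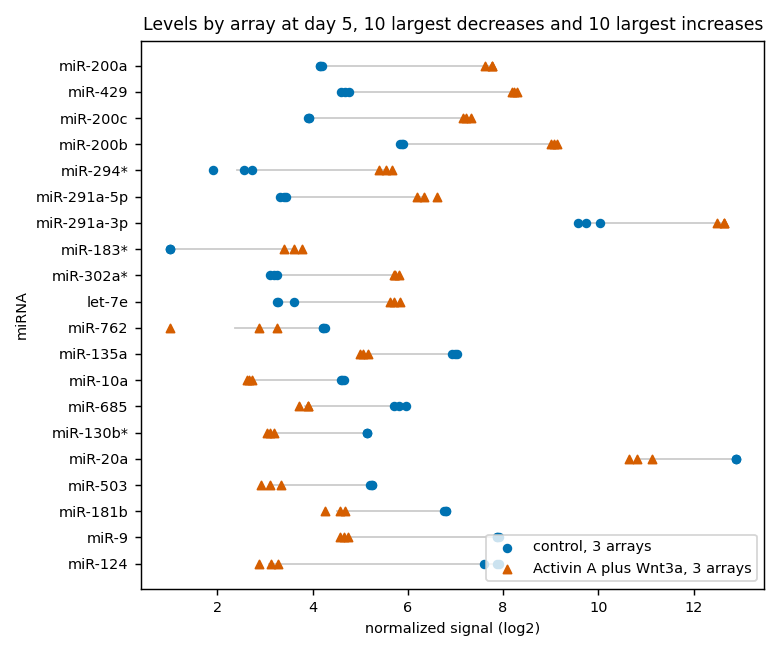
Normalized log2 signal on each array (x axis) for the 10 largest increases and the 10 largest decreases among called miRNAs detected on all 6 arrays. Circles are 3 control arrays, triangles 3 Activin A plus Wnt3a arrays, and lines join the group means. The treated and control arrays do not overlap in any row.

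The miRNAs coded inside the Hox clusters moved in both directions. MiR-196b was undetected on all 3 control arrays and measured 5.76, 5.78 and 5.74 in treated cells, at least 27.1-fold higher (adjusted p = 1.98e-10). MiR-196a, which differs from it by 1 of 22 bases, was also undetected in control and measured 4.84, 4.81 and 4.81, at least 14.1-fold higher (adjusted p = 1.71e-08). With 1 base between them, signal of each on the probe of the other was not tested. MiR-10a measured 4.62, 4.66 and 4.60 in control and 2.63, 2.67 and 2.74 in treated cells, a decrease of 3.86-fold (-1.95 ± 0.35 SE, adjusted p = 0.00104). MiR-10b measured 5.35, 5.46 and 5.48 and then 6.14, 6.19 and 6.37, a difference of 0.80 that was under the 2-fold limit. The 4 rows thus ended in 2 increases, 1 decrease and 1 miRNA not called, and these 3 calls held with the slide term.

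Of the miRNAs of endoderm-derived organs, miR-375 of the pancreatic islet was called and was undetected on all 3 control arrays and on the arrays of undifferentiated ESCs. It measured 6.12, 6.26 and 6.44 in treated cells, at least 38.7-fold higher than control (adjusted p = 3.74e-07), and its difference was the largest increase among the 332. MiR-122 of the liver and miR-192, miR-194 and miR-215 of the gut and liver were undetected on all 6 arrays. MiR-216b and miR-218 were tested and not called. Of this list, then, 1 of 3 tested members was called higher, beside 17.2% of all miRNAs tested.

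The clusters that each hold a miR-99 or miR-100, a let-7 and a miR-125 gene differed by locus. On chromosome 17, miR-99b, miR-125a-5p and let-7e rose. MiR-99b (chr17:17830194-17830215) measured 5.71, 5.81 and 5.80 in control and 7.43, 7.54 and 7.60 in treated cells (1.75 ± 0.30 SE, adjusted p = 7.20e-04). MiR-125a-5p (chr17:17830817-17830840) measured 5.43, 5.59 and 5.58 and then 7.54, 7.58 and 7.82 (2.11 ± 0.14, adjusted p = 7.46e-07). Let-7e, the let-7 of the same cluster, measured 3.25, 3.27 and 3.62 and then 5.63, 5.72 and 5.83 (2.34 ± 0.57, adjusted p = 0.00581), and its call was lost with the slide term (adjusted p = 0.183). Neither opposite strand tested from this locus was called higher: miR-99b* differed by 0.21 and was not called, and miR-125a-3p measured 7.60, 7.31 and 7.43 in control and 6.74, 6.72 and 6.56 in treated cells. Its difference of -0.77 (adjusted p = 0.00662) was under the 2-fold limit, so it was not called either, although its groups did not overlap.

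From the paralogous loci on chromosomes 9 and 16, 3 main strands fell. MiR-100 measured 6.43, 6.39 and 6.53 in control and was undetected in treated cells, at least 35.5-fold lower (adjusted p = 2.80e-09). MiR-99a measured 6.17, 6.21 and 6.19 and was likewise undetected, at least 29.6-fold lower (adjusted p = 1.20e-09). These 2 differ by 1 of 22 bases, and each differs from miR-99b by 4, with 1 seed shared by the 3. Signal of miR-99a on the probe of miR-100, or the reverse, was not tested, so their falls may not be separate. MiR-125b-5p, which shares its seed with miR-125a-5p, measured 8.32, 8.57 and 8.48 in control and 6.46, 6.59 and 6.88 in treated cells (-1.81 ± 0.15, adjusted p = 5.29e-06). Let-7c, from chromosome 16 and a second locus, differed by 0.62 and was not called (adjusted p = 0.287). None of the 4 tested rows of the other let-7 miRNAs was called by limma, with differences from -0.63 to -0.04 and 0 of them at an unadjusted p under 0.05. The shared spread limits these p-values: the SE of let-7f was 0.73, and 0.13 without Wnt3a replicate 1. With only the 6 arrays compared, limma gave adjusted p = 0.00402 for let-7f (-0.31) and 0.0287 for let-7c (0.62), both under 2-fold. Let-7a, let-7b* and let-7f* stayed above 0.05.

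The same opposition within a seed appeared in 3 further families. In the miR-181 family, whose members act in lymphoid and neural cells, miR-181c measured 2.18, 2.41 and 2.06 in control and 4.29, 4.21 and 4.17 in treated cells (2.01 ± 0.16 SE, adjusted p = 2.45e-06). MiR-181b measured 6.80, 6.80 and 6.76 and then 4.68, 4.57 and 4.26 (-2.28 ± 0.26, adjusted p = 4.43e-05). MiR-181a measured 5.00, 5.05 and 5.07 and then 2.25, 1.00 and 2.34, with detection on 2 of 3 treated arrays, and its call was lost with the slide term (adjusted p = 0.0608). In this family 1 member rose, 2 fell, and miR-181d was not called, with a difference of 0.62.

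In the miR-15 and miR-16 seed family, whose members restrain cell cycle genes, 4 rows were called lower, 1 higher and 4 not at all. MiR-503, whose seed is AGCAGCG, measured 5.24, 5.24 and 5.21 in control and 3.34, 3.10 and 2.91 in treated cells (-2.11 ± 0.15 SE, adjusted p = 1.37e-06). MiR-16 fell by 1.08 and miR-322 by 1.35, both calls being lost with the slide term (adjusted p = 0.0867 and 0.308). MiR-322*, at the floor on every treated array, fell by 1.01, a call that was lost too (adjusted p = 0.0924). MiR-497 measured 3.27, 3.42 and 2.77 and then 4.49, 4.49 and 4.55, an increase of 1.36 ± 0.18 that held with the slide term. MiR-367, already described, and miR-92a of the miR-17 to miR-92a cluster also share a seed. MiR-92a fell by 1.39 ± 0.18, from 11.59 on every control array to 10.04, 10.16 and 10.38. With scaling to the 75th percentile of the miRNAs detected on all arrays, miR-16, miR-497 and miR-92a kept their direction but lost their calls. For the seed AGCAGCA, neither that scaling nor the slide term thus left calls in both directions. In the main fit the members of these 5 seed groups moved in both directions, while in the miR-200 family, with its 2 seeds, all 5 rose.

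**Figure D3:**
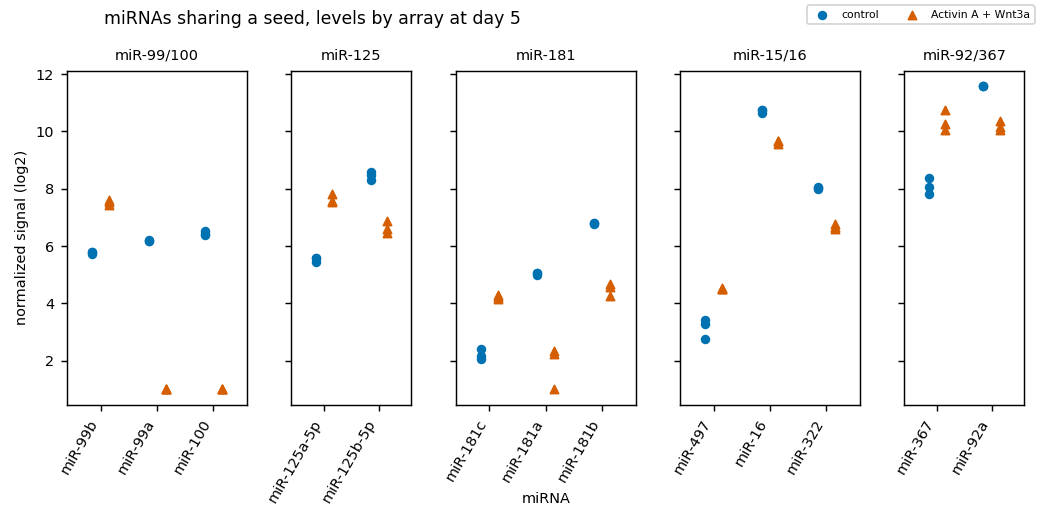
Normalized log2 signal by array at day 5 for miRNAs grouped by shared seed. Circles are 3 control arrays and triangles 3 Activin A plus Wnt3a arrays. In each panel at least 1 member was higher and at least 1 lower in treated cells, and miR-99a and miR-100 sat at the floor of 1.00 there.

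Few rows of the growth-associated clusters were called. Those called were all lower, at shares not far from the 16% of all miRNAs tested that were called lower. Of 9 tested rows of the miR-17 to miR-92a cluster, 2 were called lower, with a median difference of -0.87. MiR-20a, from this cluster, measured 12.89 on every control array and 11.13, 10.64 and 10.81 in treated cells (-2.03 ± 0.34 SE, adjusted p = 5.69e-04), and its call was lost with the slide term (adjusted p = 0.0599). MiR-17, which has the same seed, differed by -0.87 and was not called, since the difference was under 2-fold. Of 8 rows of the paralogous clusters, with a median of -0.31, 3 had an unadjusted p under 0.05. MiR-93 fell by 1.02 and miR-20b by 1.01, both near the 2-fold limit and both lost with the slide term (adjusted p = 0.126 and 0.377). Both calls were also lost with scaling to the 75th percentile of the miRNAs detected on all arrays. The other 6 were not called, among them miR-106b with -0.14, miR-363 with 0.01 and miR-20b* with 0.26. The miR-290 and miR-302 miRNAs printed above, whose seeds carry the letters AAGUGC 1 base earlier, changed the other way.

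In the miR-130 and miR-301 family 3 of 5 rows were called lower, beside 16% of all tested. MiR-130b* measured 5.14 on every control array and 3.10, 3.04 and 3.20 in treated cells (-2.02 ± 0.28 SE, adjusted p = 1.44e-04). MiR-130b fell by 1.65 and miR-301b, from the same locus, by 1.12, both lost with the slide term (adjusted p = 0.0542 and 0.138). In the miR-30 family miR-30a fell by 1.07 and its minor strand miR-30a* by 2.46, with 6 other rows not called. In the miR-29 family, which targets collagens, miR-29b rose by 1.76, a call lost with the slide term (adjusted p = 0.11), and miR-29a and miR-29c were not called. In the miR-148 and miR-152 family and the miR-221 and miR-222 pair 0 of 3 and 0 of 2 rows were called by limma, and 1 and 0 had an unadjusted p under 0.05, the 1 being miR-152 with a difference of 0.91. With only the 6 arrays compared, limma gave adjusted p = 2.50e-04 for miR-148a (0.66) and 0.00135 for miR-222 (0.42), both under 2-fold. For miR-148b and miR-221 it stayed above 0.05.

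The paralogous clusters of miR-23, miR-27 and miR-24 rose together. All 6 rows tested were called higher, with differences from 1.70 to 2.28 and a median of 1.98. MiR-24 measured 7.08, 7.00 and 7.08 in control and 9.07, 9.0 and 9.0 in treated cells (1.98 ± 0.11 SE, adjusted p = 2.03e-07). MiR-27a measured 6.19, 6.19 and 6.17 and then 8.43, 8.43 and 8.52 (2.28 ± 0.62), a call lost with the slide term (adjusted p = 0.19). MiR-23a, miR-23b and miR-27b rose by 2.01, 1.70 and 1.99. MiR-24-2* was undetected in control and at least 3.48-fold higher.

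Markers of other cell types were followed as whole lists. Of 11 tested miRNAs of fibroblasts and mesenchyme, the feeder cell type among them, 5 were called higher, beside 17.2% of all tested. These were miR-143 of smooth muscle, at least 5.44-fold higher, miR-31 with 1.64, miR-31*, at least 3.59-fold higher, miR-199a-5p with 1.88 and miR-199b* with 1.37, the last of them lost with the slide term (adjusted p = 0.704). MiR-199a-5p was detected on 1 of 3 control arrays and was at or near the floor there, so its difference depends on the floor. MiR-21, miR-22 and miR-140 were not called, and miR-145 was undetected on all 6 arrays. Over a list of 13 strands the summed signal was 1721 to 1835 in control, 1574 to 1940 in treated cells and 3594 to 4382 in undifferentiated ESCs, which were grown on feeders. The part of remaining feeder cells in these differences was not tested.

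Of 4 tested miRNAs of blood and endothelium 1 was called, beside 33.1% of all tested. It was miR-486 with -1.56, a call lost with the slide term (adjusted p = 0.214). MiR-142-3p, miR-150 and miR-451 were undetected on all 6 arrays. The 1 muscle miRNA tested, miR-133a, was not called (adjusted p = 0.134), and miR-1 and miR-206 were undetected on all 6 arrays. Few members of the large imprinted and repeated clusters were called. In the Dlk1-Dio3 cluster, expressed from the maternal chromosome, 5 of 52 rows were called higher and 2 lower, with a median of 0.39. They were miR-136, miR-136*, miR-376a*, miR-377 and miR-665, with increases of 1.05 to 1.64, and miR-494 and miR-770-3p, which fell by 1.84 and 1.23. All 7 calls were lost with the slide term (adjusted p = 0.269, 0.132, 0.214, 0.066, 0.482, 0.0924 and 0.35 in this order). In the rodent cluster of miR-297, miR-466, miR-467 and miR-669, whose members are nearly identical in sequence so that their probes cannot be taken as separate, 2 of 21 were called higher, with a median of 0.75. Of these 21, 12 had an unadjusted p under 0.05. MiR-297c of that cluster was undetected in control and at least 6.28-fold higher.

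**Figure D4:**
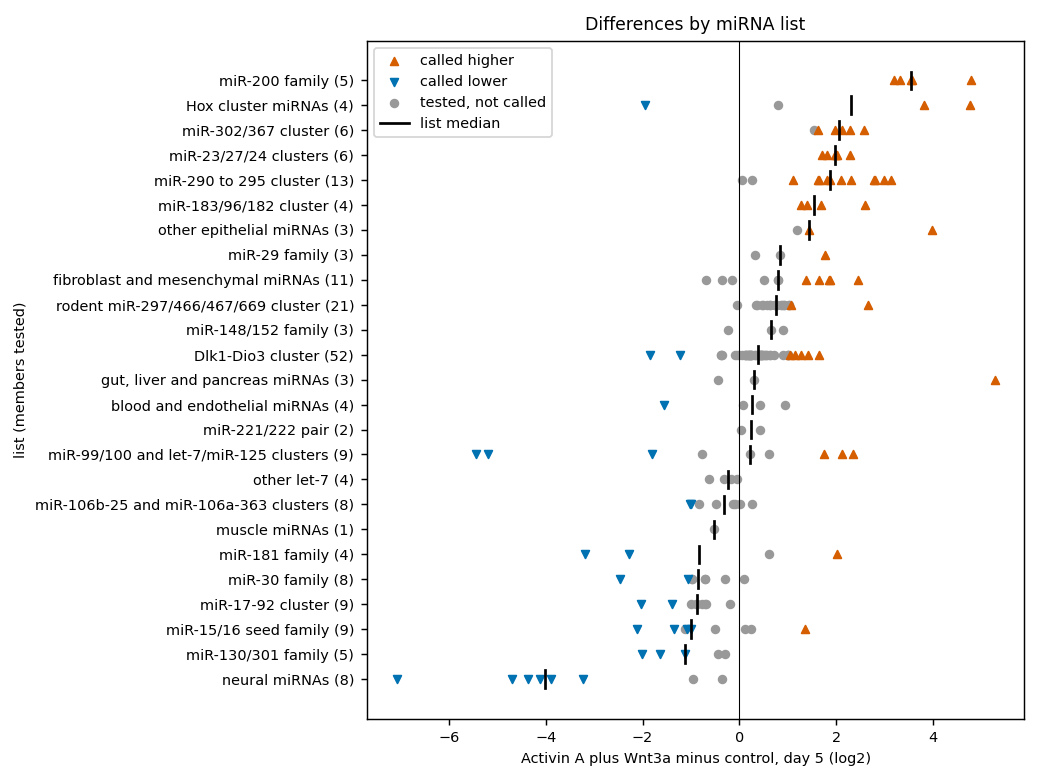
Difference between Activin A plus Wnt3a and control at day 5 (x axis, log2) for every tested member of each list (y axis, with the number tested). Triangles pointing up or down are called miRNAs, grey circles were not called, and bars mark list medians, from -4.01 for neural miRNAs to 3.54 for the miR-200 family.

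The other miRNAs with the largest changes belong to none of these lists. MiR-135a measured 7.03, 6.93 and 7.00 in control and 4.99, 5.07 and 5.16 in treated cells (-1.91 ± 0.67 SE, adjusted p = 0.0372). Its call was lost with the slide term (adjusted p = 0.391), where the difference was -1.71. MiR-685 measured 5.81, 5.72 and 5.97 and then 3.91, 3.91 and 3.71 (-1.99 ± 0.33, adjusted p = 5.58e-04). MiR-762 measured 4.26, 4.23 and 4.23 and then 3.25, 2.88 and 1.01 (-1.86 ± 0.63, adjusted p = 0.0321), with 1 treated array near the floor and a call lost with the slide term (adjusted p = 0.275). MiR-344 was undetected in treated cells and at least 6.74-fold lower, and miR-489 was undetected in control and at least 6.40-fold higher. MiR-210, which is induced by hypoxia-inducible factor, measured 6.37, 6.32 and 6.28 and then 7.98, 7.94 and 7.94 (1.64 ± 0.17, adjusted p = 2.46e-05).

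Few miRNAs were called for the addition of Wnt3a to Activin A. Between cells given both factors and cells given Activin A alone, 9 of 332 miRNAs were called (2.71%), 7 of them higher and 2 lower with both factors, and 42 had an unadjusted p under 0.05. Without Wnt3a replicate 1 in the shared estimate of spread, 11 were called and 100 had such a p. The signs here rest on the labels of the scanner output, which the columns of the authors' processed table contradict: its 3 columns named for both factors at day 5 hold the ranks of the Activin A arrays, and the reverse. By those names every sign in this comparison would turn, and the cells called treated above would be those given Activin A alone. MiR-196a measured 2.25, 2.02 and 2.67 with Activin A alone, against 4.81 to 4.84 with both factors (2.51 ± 0.15 SE, adjusted p = 2.92e-06). MiR-196b measured 3.99, 3.93 and 4.13 with Activin A alone, against 5.74 to 5.78 (1.74 ± 0.10). MiR-10b measured 4.41, 4.37 and 4.43 with Activin A alone, against 6.14, 6.19 and 6.37 (1.83 ± 0.29), so that 3 of the 4 Hox cluster rows were called higher with both factors. Set side by side, the differences from the shared controls were 0.80 for miR-10b with both factors and -1.02 with Activin A alone.

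MiR-9* went the other way, from 4.13, 3.99 and 4.07 with Activin A alone to 1.00, 1.00 and 2.15 with both factors (-2.67 ± 0.52 SE, adjusted p = 0.0153). The mesenchymal miR-199a-5p was undetected with Activin A alone and on all 3 treated arrays measured 2.80 to 3.07, and miR-199b* differed by 1.89. MiR-672, miR-466h and miR-718 were the other calls, with differences of 2.01, 1.06 and -1.25. One Activin A array lay on the slide of the treated cells, and against that array alone the treated mean differed by 2.15 for miR-196a, 1.63 for miR-196b, 1.80 for miR-10b and -2.68 for miR-9*. With slide as a fixed term 5 miRNAs were called, all higher, of which miR-196a, miR-196b, miR-199a-5p and miR-672 were among the 9. The calls of miR-10b, miR-9*, miR-199b*, miR-466h and miR-718 were lost (adjusted p = 0.106, 0.193, 0.614, 0.476 and 0.0792). For miR-375 and miR-124 the difference from the shared controls was 5.27 and -4.70 with both factors and 4.61 and -4.61 with Activin A alone.

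The treatment effect was also set against its size at day 3, where slide and scan separated the treated arrays from every other array of that day, so that treatment and slide cannot be told apart there. The difference between the effects was tested for 339 miRNAs, and 58 were called (17.1%), 30 in the positive and 28 in the negative direction. With scaling to the 75th percentile the split was 14 positive and 40 negative. Among the 30 miRNAs named for the size of their change or bound, 22 had an effect that differed between the days. These 30 were chosen by their difference at day 5, which also enters this comparison. That choice favours a larger effect at day 5, so the count is no separate evidence. The effect on miR-196a was 0.33 at day 3 and 3.82 at day 5, a difference of 3.49 (adjusted p = 1.72e-08). For miR-99a it was -1.37 at day 3 and -5.19 at day 5, when it was undetected in treated cells, and for miR-9 it was -0.39 and -3.23. The 4 miR-200 members detected on all 6 arrays had effects of 1.55 to 1.82 at day 3 and 3.20 to 3.56 at day 5. For miR-10a the effect was -3.34 at day 3 and -1.95 at day 5, a smaller decrease at day 5.

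**Figure D5:**
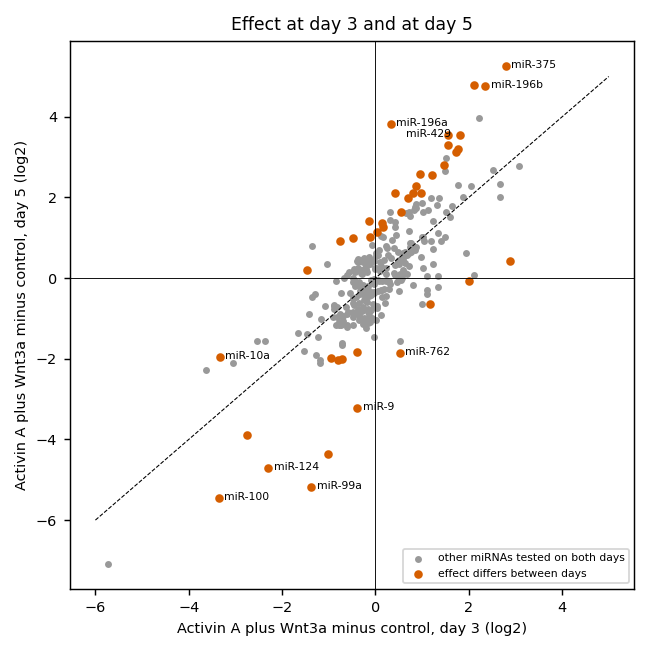
Difference between Activin A plus Wnt3a and control (log2) at day 3 (x axis) and day 5 (y axis) for the 303 miRNAs tested on both days. The 41 coloured points had effects that differed between the days, and the dashed line marks equal effects. MiR-375, miR-196a and miR-429 lie above the line, and miR-9, miR-99a, miR-100 and miR-124 below it.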

How the data were processed

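MiRNAs were measured on Agilent 1-colour mouse arrays of 13715 spots. The scanner output deposited by the authors holds intensity values. Feature Extraction, version 10.7.3.1 per the file headers and 9.5.3.1 in the submitters' processing notes, subtracted the background and combined the probes of 650 miRNAs into total signals, with 0.1 for a miRNA not detected. Detection flags, the other values deposited by the authors in these files, served as filters. The deposited log2 table of the authors was used only to check its columns: 18 of 39 hold the values of another array, and the 3 named Activin A plus Wnt3a day 5 follow the Activin A day 5 arrays and the reverse. It entered no test, and groups follow the labels of the scanner output. At day 5 no spot was saturated and the arrays' local background had medians of 35 to 37.

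The 39 arrays were quantile normalized together, set to at least 2 and converted to log2. The 12 arrays of day 5 were fitted with limma 3.58.1 in R 4.3.3, with Benjamini-Hochberg adjustment over all mouse miRNAs tested. The comparison of days was fitted in the same way to all arrays of days 3 and 5. That fit too shares its estimate of spread with the Wnt3a and Activin A arrays. The fit was tested on simulated data. "At least" marks a fold against a group without detection, taken to the mean, over its 3 arrays, of the lowest detected log2 signal. That signal is not a detection limit for each miRNA, so such a fold is nominal and may be too large. Alternatives changed the scaling, floor, filter, background correction, arrays fitted, slide (statmod 1.5.0), replicate block and test, and left out each array in turn. The miRNAs named are the 10 largest increases and 10 largest decreases among called miRNAs detected on all 6 arrays, up to 5 per direction with the largest bounds, and members of 25 lists. The comparison, lists and tests were chosen with earlier results of these data known. MiR-210, and the calls between the 2 treatments that are on no list, were named after their values were seen. The number of arrays limits the precision.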

Additional observations from a re-analysis of the deposited data

Results flagged for a closer look

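Of the 30 miRNAs named for the size of their change or of their bound, 22 had an effect of Activin A plus Wnt3a that differed between day 5 and day 3 in limma's test of that difference. The 30 were chosen by their difference at day 5, which favours a larger effect on that day, so the count is no separate evidence. Values are the effect at day 5 minus the effect at day 3 on the log2 scale. The difference was positive for miR-196a (3.49), miR-375 (2.48), miR-196b (2.41), miR-429 (1.98), miR-200c (1.76), miR-200a (1.74), miR-183* (1.64), miR-200b (1.44), miR-294* (1.41), miR-10a (1.39), miR-302a* (1.36) and miR-291a-3p (1.32). It was negative for miR-99a (-3.82), miR-153 (-3.45), miR-344 (-3.05), miR-9 (-2.83), miR-124 (-2.41), miR-762 (-2.38), miR-100 (-2.09), miR-20a (-1.23), miR-124* (-1.14) and miR-685 (-1.03). For miR-10a the positive value means a smaller decrease at day 5, and for the miRNAs undetected in a group the size depends on the floor. The treated arrays of day 3 and of day 5 lay on different slides, so slide and day cannot be told apart in these values.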

How the results depend on the processing

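The 110 calls between Activin A plus Wnt3a and control became 33 (19 higher, 14 lower) after normexp background correction with an offset of 50, and 68 with slide as a fixed term. With normexp 99 of the 110 kept an adjusted p under 0.05 with the same sign, so most were lost to the 2-fold limit, which an added offset makes harder to reach. The other settings that kept all arrays gave from 84 calls (floor of 8) up to 64 higher and 58 lower (only the 6 arrays). With single arrays left out the fewest were 101 calls and the most 64 higher and 58 lower, without Wnt3a replicate 1. No called miRNA reversed in any of the 26 settings, and 19 were called in all of them, or 45 with normexp left aside. MiR-135a lost its call without any 1 of the arrays of control, Activin A or Activin A plus Wnt3a. MiR-20b, miR-322, miR-34b-5p, miR-762, miR-136 and miR-770-3p lost theirs without some of these arrays. MiR-290-3p lost its call without treated replicate 3 or control replicate 2, and miR-199b* without treated replicate 3 or control replicate 3. The call of miR-322* was lost without control replicate 2 or 3, and that of miR-93 without control replicate 3. With slide as a random block 120 were called, but the block's correlation was negative, so this is no test of slide. Against Activin A alone, 9 calls became 5 with the slide term and 6 to 11 with an array left out. The comparison of day 5 with day 3 gave 51 to 62 calls with an array left out and 14 positive and 40 negative calls with scaling to the 75th percentile. Same-numbered replicates of the treated and control groups did not deviate together (r = -0.319, -0.171 and 0.044 over 260 miRNAs), so the numbers do not pair the arrays, and the replicate block gave 109, 9 and 55 calls in the 3 comparisons. Low signals limit the precision: the lowest detected normalized signal was 2.00 on the control arrays and 2.00 to 2.83 on the treated arrays.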
